A study of Homo sapiens with 6 samples.

Results

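The axon guidance genes of 2 gallbladder cancer cell lines are described here: the ephrins and their Eph receptors, the class 3 to 7 semaphorins with their plexin and neuropilin receptors, the netrins with their UNC5 receptors, and the Slits with their Robo receptors. Members were taken by gene symbol from the deposited table, which held 68 of them among 63140 genes. RNA-seq of poly-A RNA was made from 3 libraries of NOZ, an established human gallbladder cancer line, and 3 libraries of NOZ-R. NOZ-R was derived from NOZ by raising the dose of gemcitabine, a nucleoside analogue used as chemotherapy, in steps. Whether NOZ-R is a clone or a pool, and whether its cells were in drug when collected, is not given in the sources used here. The labels do not say whether the libraries of a line came from separate cultures, so each p-value rests on the spread among these libraries alone, and that spread may be technical.

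Guidance molecules were first described as cues that attract or repel growing axons, and epithelial and tumour cells use them to set adhesion, cell sorting and migration. Ephrins are membrane-bound: A ephrins hang from a lipid anchor and mainly bind EphA receptors, B ephrins cross the membrane and mainly bind EphB receptors, and Eph receptors are receptor tyrosine kinases that meet their ligand where cells touch. Semaphorins signal through plexins, whose inner part acts on small GTPases of the Ras family, and the secreted class 3 semaphorins mostly need a neuropilin as the binding co-receptor. Netrins act through DCC, neogenin and the UNC5 receptors, and Slits repel cells through Robo receptors.

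Total counts per library lay between 14136037 and 19244923. Levels within a gene are given as CPM, counts scaled to a common library size after TMM correction for composition, and levels of different genes as the deposited FPKM, which is also per length. Differences are log2 fold changes of NOZ-R minus NOZ from edgeR's quasi-likelihood test, with p adjusted over all 14386 genes tested, and 0.05 was the threshold. Positions are whole gene models of GENCODE on GRCh38. NOZ replicate 2 stood apart from the other NOZ libraries, with a mean chi-square per gene of 11.2 and 9.83 against replicates 1 and 3, which differed from each other by 2.19. Epithelial identity was checked with 10 markers chosen for it, whose summed level was 2573 to 3080 CPM in NOZ and 3439 to 3537 CPM in NOZ-R. Keratins KRT7, KRT8, KRT18 and KRT19 made up most of it, while E-cadherin CDH1 was at 1.03 CPM in NOZ, against 0.290 CPM in NOZ-R. The list was split, with 5 markers higher in NOZ-R (KRT7, KRT8, KRT18, MUC1 and KRT17) and 4 lower. Those lower were EPCAM (log2 fold change -0.56), CLDN4 (-0.92), LGALS3 (-0.32) and CDH1 (-1.83). Of 10 biliary and gallbladder markers, 4 could be tested and 3 were higher, the trefoil factors TFF1 (log2 fold change 1.44), TFF2 (2.87) and TFF3 (3.30). SOX9 was at 232 CPM and 221 CPM and did not pass, and SOX17 and FXYD2 had no count in any library.

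Among the guidance genes with enough counts to be tested, more were higher than lower in NOZ-R, and each that passed at 2-fold or more was an increase. Of the 68 genes, 42 had enough counts to be tested. The test called 20 of them higher and 10 lower in NOZ-R, and 12 did not pass. The share called was 71.4%, against 60.2% of all genes tested, of which 30.4% were higher and 29.8% lower. At an estimated 2-fold or more, 12 were higher and 0 were lower, whereas 8.96% of all genes tested were higher and 7.57% lower by that measure. The largest increases were in the Slit receptor ROBO1, the plexins PLXNA4 and PLXND1, the receptor EPHB2 and the semaphorins SEMA6B and SEMA4F, and the largest decreases, all under 2-fold, were in EPHB4, the ephrin EFNA5, SEMA4G and SEMA3A. The median log2 fold change of the tested members was 0.27, against -0.01 over all genes tested. ROBO1 and PLXNA4 were past the cutoff of the count filter in 3 NOZ-R and 0 NOZ libraries, so they were tested only because of their level in NOZ-R. SEMA3G was past it in 3 NOZ-R libraries and 1 NOZ library, and UNC5B in 3 and 2. The ranges of the lines did not overlap for 32 of the 42 members, 76.2%, against 65.3% of all genes tested.

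Under scaling by library size alone, the scale on which the FPKM rests, the median of all genes was -0.14 in place of -0.01. There 17 members were higher and 13 lower, with 23.1% of all genes higher and 38.0% lower. Against a 2-fold change itself, edgeR called 8 members higher and 0 lower, at a background of 5.89% and 3.07%. Without NOZ replicate 2, 18 members were higher and 9 lower, with 31.4% and 29.3% of all genes. Without the count filter, 17 of the 26 other members could also be fitted, and edgeR then called 23 higher and 9 lower, at a background of 14.8% and 14.4%. The members gained were EPHA3, EPHB1 and ROBO2, all higher.

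**Figure D1:**
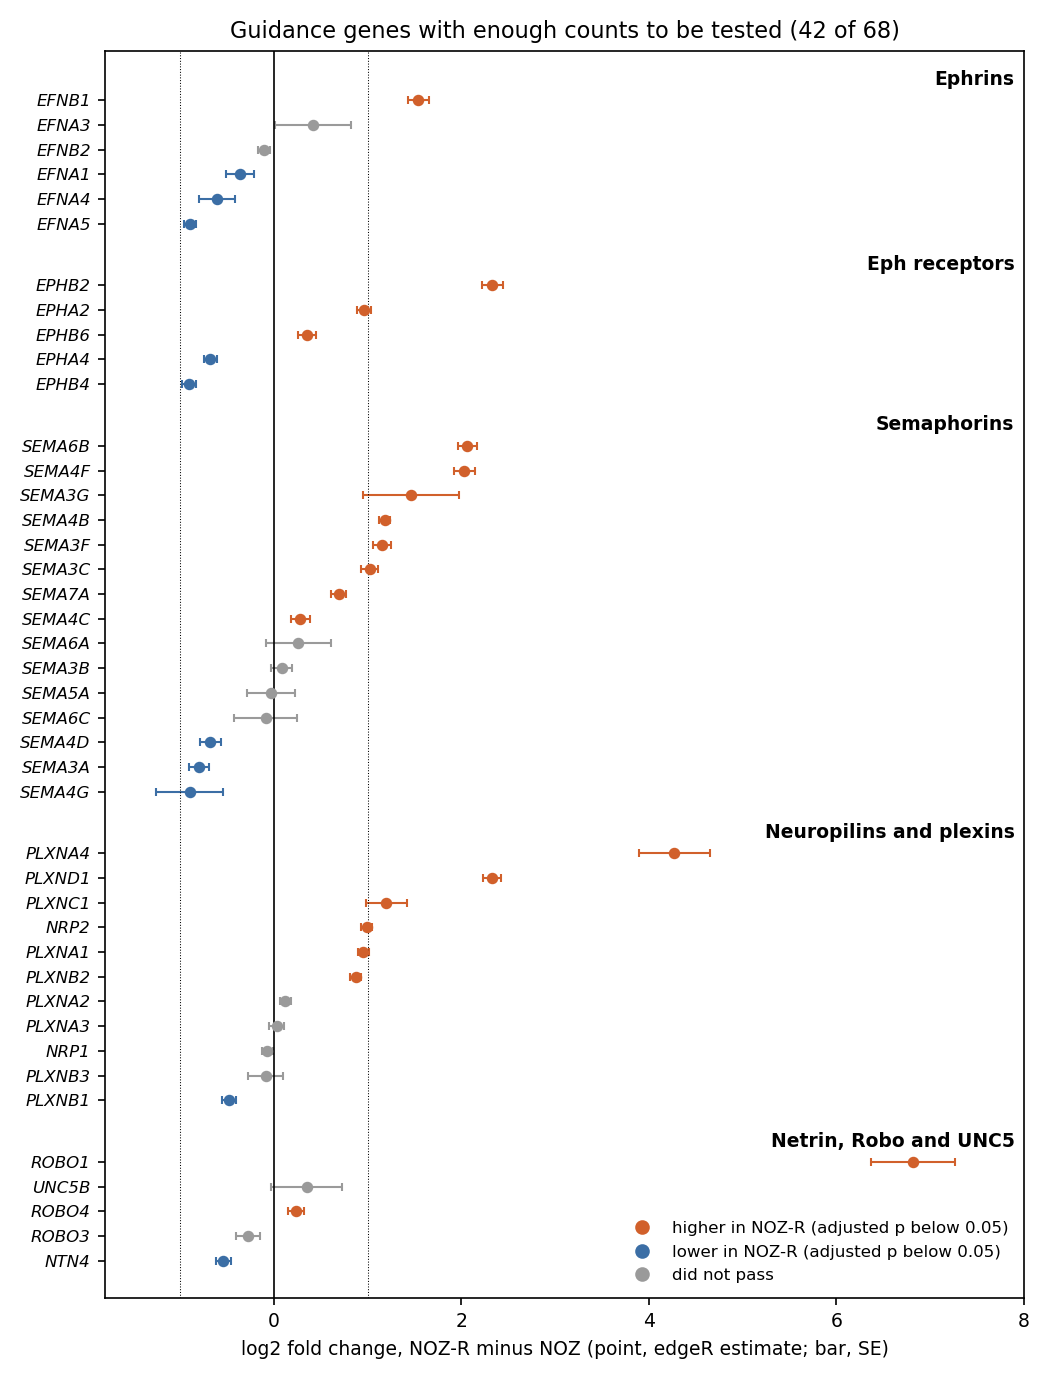
Log2 fold change of NOZ-R minus NOZ (x axis, log2 units) for the 42 tested guidance genes, one row each, as edgeR estimate (point) with its SE (bar), grouped by family. Orange points were higher, blue points lower and grey points did not pass. The points beyond the dotted line at 1 are all increases, up to 6.82 for ROBO1, and no point lies below the dotted line at -1.

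Of 4 tested A ephrins 3 were lower in NOZ-R and 1 did not pass, while of 2 tested B ephrins 1 was higher and 1 did not pass. Of the tested ephrins 66.7% were called, near the 60.2% of all genes tested. EFNB1 (chrX:68828997-68842147), a transmembrane ligand of EphB receptors, measured 9.24, 11.7 and 10.9 CPM in NOZ replicates 1 to 3 and 32.8, 27.2 and 32.6 CPM in NOZ-R. Every NOZ-R library lay above every NOZ library, and the log2 fold change was 1.54 ± 0.112 (SE, edgeR's adjusted p = 6.16e-08). EFNB2, the B ephrin known from arteries and a ligand of EPHB4, was at 76.9 CPM ± 3.93 in NOZ, against 71.3 CPM ± 1.01 in NOZ-R (SD, n = 3 per line) and did not pass (log2 fold change -0.11 ± 0.0635, SE, edgeR's adjusted p = 0.15). Scaled by library size alone its fold change was -0.24 (edgeR's adjusted p = 0.00491). EFNB3 had 2 counts in all, both in 1 NOZ-R library.

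EFNA5 (chr5:107376889-107670895), an A ephrin that also binds EPHB2, measured 69.2, 68.9 and 70.2 CPM in NOZ, against 38.3, 36.7 and 36.1 CPM in NOZ-R. These libraries lay close together within each line, and the difference was -0.90 ± 0.0656 on the log2 scale (SE, edgeR's adjusted p = 5.81e-08). EFNA4 went from 4.87 CPM ± 0.867 to 3.16 CPM ± 0.538 (SD, n = 3 per line), a log2 change of -0.61 (edgeR's adjusted p = 0.0153). That call was lost without NOZ replicate 1 or 3 or NOZ-R replicate 3 (edgeR's adjusted p = 0.0573, 0.0564 and 0.0644). EFNA1, the ligand best known for binding EPHA2, changed by -0.36 (edgeR's adjusted p = 0.0471), with means of 8.29 CPM ± 1.04 and 6.39 CPM ± 0.878 (SD, n = 3 per line). Its call was lost without NOZ replicate 1 or 3 or NOZ-R replicate 2 or 3 (edgeR's adjusted p = 0.0586, 0.186, 0.172 and 0.110). EFNA3 lay between 0.406 and 1.01 CPM over all libraries and did not pass (log2 fold change 0.42), and EFNA2 had 1 count. EFNA1, EFNA3 and EFNA4 are neighbours on chromosome 1 (155063731 to 155134857 across the 3 genes), and EFNA3 and EFNA4 share exon sequence with another gene model there, so their counts are uncertain.

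In FPKM the order of the ephrins changed. EFNB2 and EFNA5 were the leading ephrins in NOZ, at 16.0 ± 0.795 and 12.6 ± 0.127 FPKM, followed by EFNA4 (4.04), EFNA1 (3.995) and EFNB1 (3.36), whose ranges overlapped from one to the next. In NOZ-R, EFNB2 (13.6 ± 0.197 FPKM) was followed by EFNB1 (8.92 ± 0.942) and then EFNA5 (6.17 ± 0.217), with no overlap among these (SD, n = 3 per line). EFNB1 made up 8.33% ± 1.10 of the summed ephrin FPKM in NOZ, against 26.0% ± 2.10 in NOZ-R.

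All 5 Eph receptors with enough counts to be tested passed, 3 higher and 2 lower, where 60.2% of all genes tested did. EPHB2 (chr1:22710839-22921500), a receptor for B ephrins that sorts epithelial cells in the intestinal crypt, measured 4.64, 3.93 and 4.61 CPM in NOZ, against 21.7, 22.6 and 22.2 CPM in NOZ-R. Its levels in NOZ-R were all several times those in NOZ, a 5.04-fold difference (log2 fold change 2.33 ± 0.112, SE, edgeR's adjusted p = 9.33e-10). EPHB4 (chr7:100802565-100827521), the venous receptor that pairs with EFNB2, moved the other way. It measured 109, 94.0 and 113 CPM in NOZ, against 57.4, 54.6 and 56.2 CPM in NOZ-R, with no overlap (log2 fold change -0.91 ± 0.0752, SE, edgeR's adjusted p = 2.11e-07). Exons of EPHB4 overlap SLC12A9 on the opposite strand, which had 1142 counts in NOZ and 904 in NOZ-R. Without strand, reads in the shared stretch cannot be told apart. EPHB6, a receptor without kinase activity, rose from 12.9 CPM ± 0.767 to 16.4 CPM ± 0.768 (SD, n = 3 per line), a log2 change of 0.35 (edgeR's adjusted p = 0.00772) that fell to 0.22 when scaled by library size alone (edgeR's adjusted p = 0.0697).

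EPHA2 (chr1:16124337-16156087), a receptor found at high level in many carcinomas, was the most abundant member of the Eph family in both lines. It measured 225, 180.2 and 218 CPM in NOZ, against 414, 390.2 and 404.5 CPM in NOZ-R. The lowest of these was NOZ replicate 2. The log2 fold change was 0.96 ± 0.0739 (SE, edgeR's adjusted p = 1.10e-07), and 0.86 without that library. EPHA4, which binds ephrins of both classes, went from 58.7 CPM ± 1.79 to 36.7 CPM ± 1.82 (SD, n = 3 per line), a log2 change of -0.68 ± 0.0707 (SE, edgeR's adjusted p = 2.08e-06). EPHA2 held 64.9% ± 1.59 of the summed Eph receptor FPKM in NOZ, against 83.9% ± 0.153 in NOZ-R, while EPHB4 went from 21.2% ± 0.365 to 7.52% ± 0.0245 and EPHA4 from 10.1% ± 1.13 to 4.19% ± 0.106 (SD, n = 3 per line). The order EPHA2, EPHB4, EPHA4, EPHB6, EPHB2 was the same in both lines, and no neighbours in it overlapped.

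Of the 9 Eph receptors with too few counts to be tested, 2 (EPHA7 and EPHB3) had none in any library. EPHA3 had 0 counts in NOZ, against 4, 5 and 5 in the NOZ-R libraries. This is 5.02-fold above a floor of 3 counts over the NOZ libraries. EPHB1 had 0 counts in NOZ, against 4, 7 and 2 in NOZ-R, 4.66-fold above the same floor. EPHA10 had 7 counts in NOZ and 0 in NOZ-R, 2.17-fold above a floor of 3 counts over the NOZ-R libraries. EPHA1 had 33 and 25 counts and shares exon sequence with ZYX on the opposite strand, and EPHA5, EPHA6 and EPHA8 had 2 to 4 counts in all. These floors allow for counting error in the line at 0 only. The counts of the other line are taken as exact, so the folds are not strict lower bounds.

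The promoters of EFNB1, EPHB2 and EPHB4 are shown because these genes of the B class changed most, the first 2 upward and the third downward. Each is the 250 bases before the RefSeq start of the gene (GRCh38.p14), read 5′ to 3′ on the gene's strand. Capitals mark the GC box GGGCGG, the site of Sp1-type factors, on either strand (read as CCGCCC on the other), with overlapping matches merged. The windows are chrX:68828771-68829020 on the plus strand for EFNB1, chr1:22710588-22710837 on the plus strand for EPHB2, and chr7:100827524-100827773 on the minus strand for EPHB4. Which start the cells use was not measured.
EFNB1: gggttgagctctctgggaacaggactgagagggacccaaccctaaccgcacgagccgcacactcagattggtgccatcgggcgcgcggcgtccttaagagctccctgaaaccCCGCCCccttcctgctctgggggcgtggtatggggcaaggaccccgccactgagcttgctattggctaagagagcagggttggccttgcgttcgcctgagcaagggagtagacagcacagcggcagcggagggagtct
EPHB2: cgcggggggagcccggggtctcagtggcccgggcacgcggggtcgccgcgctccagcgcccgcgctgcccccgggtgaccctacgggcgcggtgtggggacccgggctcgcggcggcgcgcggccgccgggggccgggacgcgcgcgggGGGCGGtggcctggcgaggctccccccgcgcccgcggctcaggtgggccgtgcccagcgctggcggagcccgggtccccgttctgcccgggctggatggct
EPHB4: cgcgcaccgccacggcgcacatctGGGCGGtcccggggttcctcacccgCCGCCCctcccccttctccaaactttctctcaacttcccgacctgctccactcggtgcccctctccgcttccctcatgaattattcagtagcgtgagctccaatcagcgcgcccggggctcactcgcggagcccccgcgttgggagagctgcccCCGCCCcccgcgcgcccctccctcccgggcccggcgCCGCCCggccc
G and C made up 63.6% of the EFNB1 window, 84.8% of the EPHB2 window and 72.8% of the EPHB4 window, against a median of 58.0% over all promoters. The GC box was found at 1, 1 and 4 places.

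**Figure D2:**
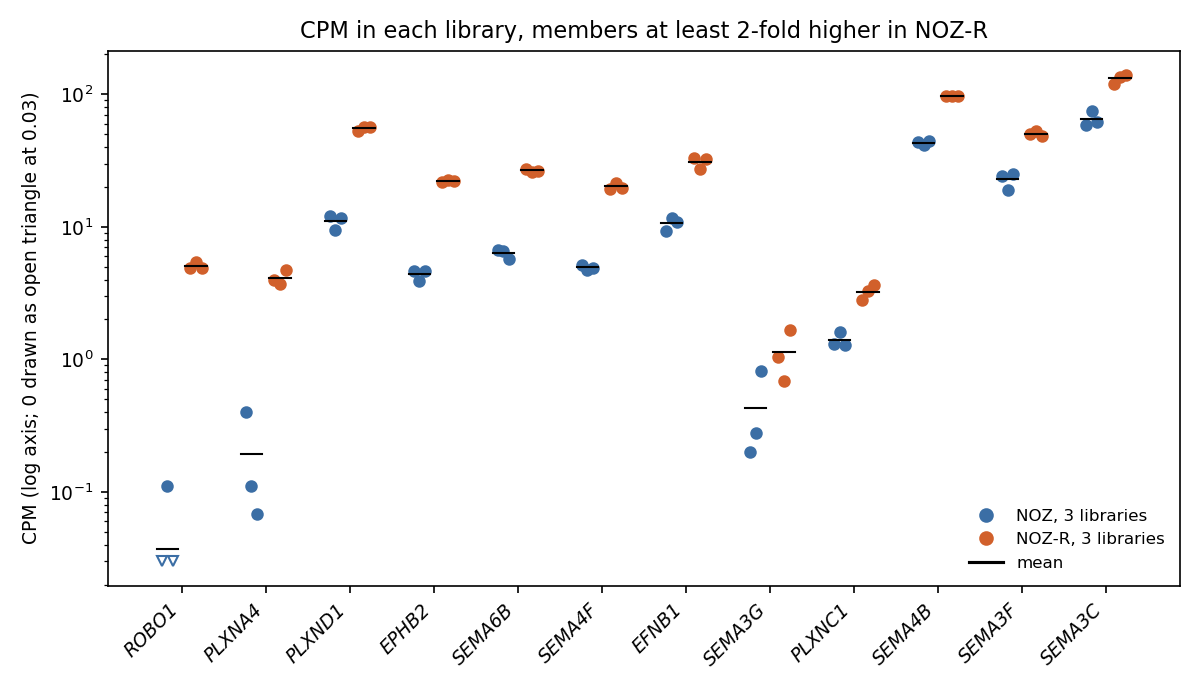
CPM in each library (y axis, log scale) for the 12 guidance genes at least 2-fold higher in NOZ-R, ordered by fold change. Blue points are NOZ, orange points NOZ-R and black lines the means of 3 libraries, with libraries at 0 as open triangles. The lines are separate for each gene except SEMA3G, where the NOZ-R library at 0.681 CPM lies below the NOZ library at 0.813 CPM.

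Of 15 tested semaphorins, 8 were higher and 3 lower, 73.3% called against 60.2% of all genes tested. All 6 that differed by at least 2-fold were higher, while 8.96% of all genes tested were higher and 7.57% lower by that measure. SEMA6B (chr19:4542593-4559808), a transmembrane class 6 semaphorin that binds PLXNA4, measured 6.74, 6.54 and 5.76 CPM in NOZ, against 27.5, 25.8 and 26.6 CPM in NOZ-R, a log2 change of 2.06 ± 0.102 (SE, edgeR's adjusted p = 1.18e-09). SEMA4F (chr2:74654228-74683853), a transmembrane class 4 semaphorin, measured 5.19, 4.76 and 4.88 CPM in NOZ, against 19.4, 21.6 and 19.8 CPM in NOZ-R, a log2 change of 2.03 ± 0.112 (SE, edgeR's adjusted p = 3.69e-09). SEMA4B (chr15:90160604-90229679), of the same class, measured 43.6, 41.6 and 44.1 CPM in NOZ, against 97.9, 97.2 and 97.4 CPM in NOZ-R, with a difference of 1.18 ± 0.0619 on the log2 scale (SE, edgeR's adjusted p = 2.33e-09). All of these lay far outside the spread of either line, and the 3 calls held in all 17 alternative settings. In class 4, SEMA4C was also higher by a little (log2 fold change 0.28, edgeR's adjusted p = 0.0282), with means of 16.9 CPM ± 1.39 and 20.4 CPM ± 1.68 (SD, n = 3 per line). This call was lost without NOZ replicate 2 or NOZ-R replicate 1 or 3 (edgeR's adjusted p = 0.0799, 0.0649 and 0.106). Scaled by library size alone SEMA4C came to 0.15 (edgeR's adjusted p = 0.218), and it did not pass in limma on either FPKM scale (adjusted p = 0.263 and 0.265).

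SEMA4D, the class 4 semaphorin known from lymphocytes and a ligand of PLXNB1, fell from 13.8 CPM ± 0.615 to 8.59 CPM ± 0.703 (SD, n = 3 per line), a log2 change of -0.68 ± 0.111 (SE, edgeR's adjusted p = 0.000129). Its chromosome, 9, had a median of -0.64 over 554 tested genes, and whether this bears on the gene was not tested. SEMA4G went from 1.61 CPM ± 0.280 to 0.842 CPM ± 0.420 (SD, n = 3 per line), a log2 change of -0.90 (edgeR's adjusted p = 0.0429). The call was lost without NOZ replicate 2 or 3 or NOZ-R replicate 1 or 3 (edgeR's adjusted p = 0.0830, 0.110, 0.0915 and 0.162) and with the replicate number as a block (0.0501), and without NOZ-R replicate 3 the value was -0.59. SEMA4G also overlaps MRPL43 on the opposite strand, a ribosomal protein gene with 1567 counts in NOZ and 993 in NOZ-R. Without strand, reads in the shared stretch cannot be told apart, and the strand setting is not given. SEMA4A had 25 and 19 counts, too few to be tested.

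Among the secreted class 3 semaphorins, SEMA3A was lower and SEMA3C, SEMA3F and SEMA3G were higher. SEMA3A (chr7:83955777-84492724), the classical repellent that binds NRP1, measured 322, 450.5 and 326 CPM in NOZ, against 199, 197 and 233 CPM in NOZ-R. NOZ replicate 2 was the highest library, and the lines did not overlap. The log2 fold change was -0.80 ± 0.111 (SE, edgeR's adjusted p = 2.85e-05), and -0.63 without that library (edgeR's adjusted p = 5.22e-09). SEMA3C (chr7:80742538-80922359), a ligand for both neuropilins and PLXND1, measured 58.4, 74.5 and 62.0 CPM in NOZ, against 120.0, 136 and 139.7 CPM in NOZ-R. Every NOZ-R library was above every NOZ library (log2 fold change 1.02 ± 0.0895, SE, edgeR's adjusted p = 3.82e-07). SEMA3F (chr3:50155045-50189075), which binds NRP2, measured 24.4, 19.1 and 25.2 CPM in NOZ, against 49.8, 53.2 and 48.8 CPM in NOZ-R, a log2 change of 1.15 ± 0.0989 (SE, edgeR's adjusted p = 3.18e-07). SEMA3G (chr3:52433053-52445085), a rare transcript here, measured 0.200, 0.277 and 0.813 CPM in NOZ, against 1.05, 0.681 and 1.68 CPM in NOZ-R, which overlap (log2 fold change 1.46 ± 0.512, SE, edgeR's adjusted p = 0.0241). Its call was lost without NOZ replicate 1 or 2 or NOZ-R replicate 3 (edgeR's adjusted p = 0.0972, 0.0578 and 0.119), and without NOZ replicate 3 the value was 2.22. SEMA3B, a neighbour of SEMA3F on chromosome 3, was at 11.4 CPM ± 1.02 and 12.02 CPM ± 0.999 (SD, n = 3 per line) and did not pass (log2 fold change 0.08).

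SEMA7A, which hangs from a lipid anchor and binds PLXNC1 and integrins, rose from 36.6 CPM ± 3.44 to 58.8 CPM ± 3.15 (SD, n = 3 per line), a log2 change of 0.69 ± 0.0814 (SE, edgeR's adjusted p = 6.88e-06). SEMA5A, SEMA6A and SEMA6C lay between 0.609 and 2.51 CPM in all libraries and did not pass, with log2 fold changes of -0.03, 0.26 and -0.09. SEMA3E, SEMA5B and SEMA6D had no count in any library, and SEMA3D had 2 counts in each line. By FPKM, SEMA3A made up 49.5% ± 4.93 of the summed semaphorin level in NOZ, against 22.7% ± 1.72 in NOZ-R (SD, n = 3 per line). In NOZ it was far above the next, SEMA3C, at 41.3 ± 8.34 and 11.1 ± 1.48 FPKM. In NOZ-R both were at similar levels whose ranges overlapped, 21.6 ± 2.05 and 20.6 ± 1.55 FPKM, followed by SEMA7A (14.8), SEMA4B (13.3) and SEMA3F (10.01).

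**Figure D3:**
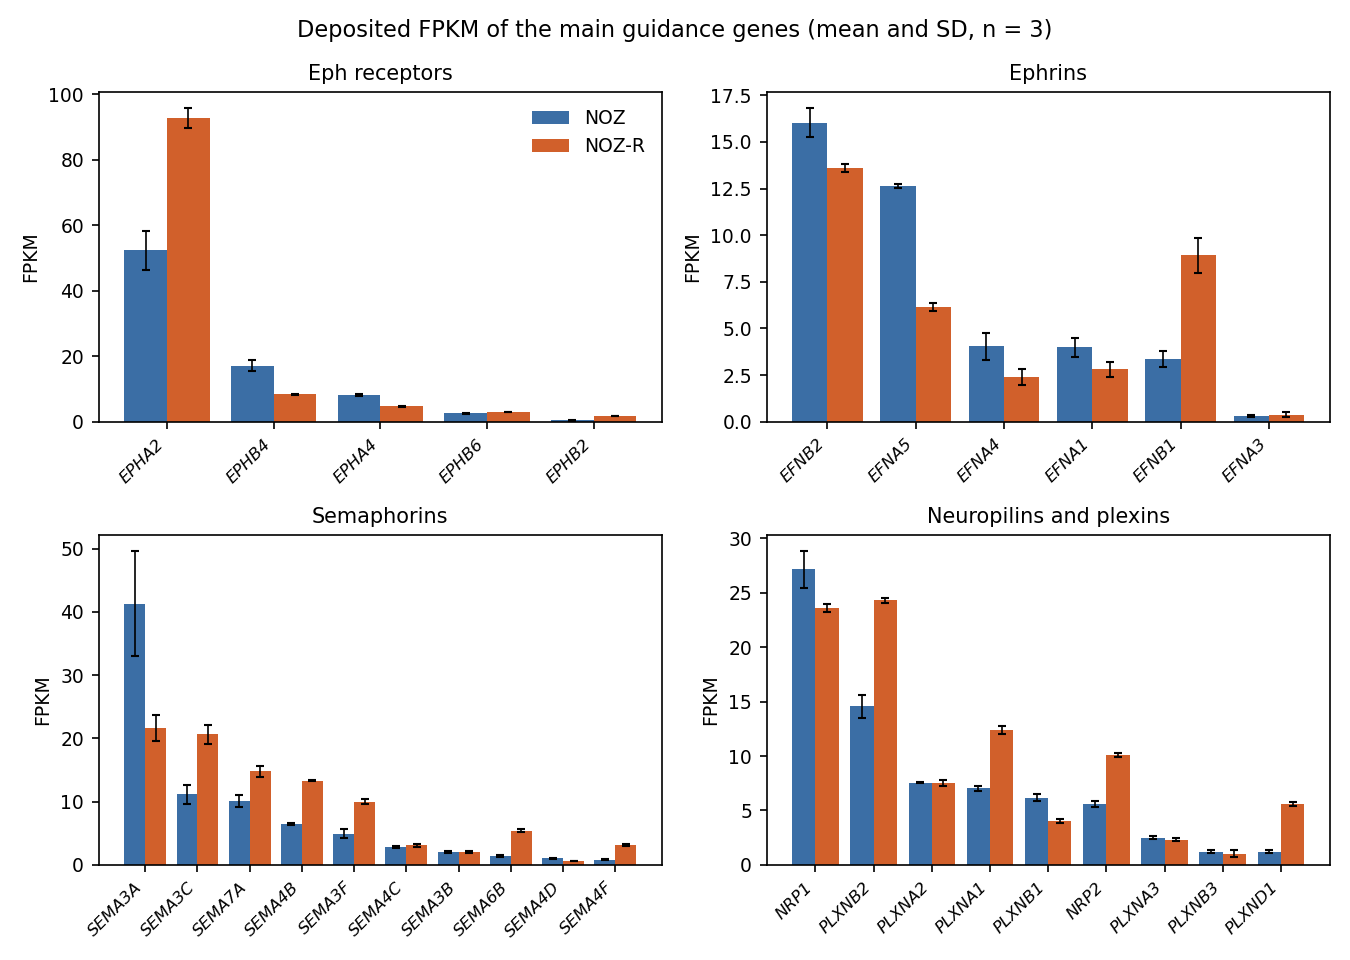
Deposited FPKM (y axis, linear, from 0) of the main ephrins, Eph receptors, semaphorins, neuropilins and plexins in NOZ (blue) and NOZ-R (orange). Bars are means of 3 libraries and error bars are SD. EPHA2 leads the Eph receptors in both lines, SEMA3A goes from 41.3 to 21.6 FPKM, and PLXND1 from 1.21 to 5.55 FPKM.

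Plexins, the signalling receptors for semaphorins, were higher in 5 of 9 cases and lower in 1. This is 66.7% called, near the 60.2% of all genes tested. PLXND1 (chr3:129555175-129606818), a receptor for SEMA3C and SEMA3E known from blood vessel patterning, measured 12.1, 9.47 and 11.6 CPM in NOZ, against 53.1, 56.9 and 56.8 CPM in NOZ-R. The 5.02-fold difference was far outside the spread of either line (log2 fold change 2.33 ± 0.0964, SE, edgeR's adjusted p = 2.04e-10). PLXNA4 (chr7:132123332-132648688), which binds SEMA6B and takes part in class 3 semaphorin receptors, had 8, 2 and 1 counts in NOZ, against 72, 60 and 70 in NOZ-R. In CPM this was 0.399, 0.111 and 0.0677 against 3.98, 3.72 and 4.69, a log2 change of 4.27 ± 0.377 (SE, edgeR's adjusted p = 4.09e-07), which rests on 11 counts in NOZ. Without NOZ replicate 1, which holds 8 of these, it was 5.39, and it was 3.95 to 5.39 over the libraries left out in turn. PLXNC1 (chr12:94148723-94307675), the receptor of SEMA7A, measured 1.30, 1.61 and 1.29 CPM in NOZ, against 2.82, 3.28 and 3.62 CPM in NOZ-R, a log2 change of 1.20 ± 0.224 (SE, edgeR's adjusted p = 0.000394). It overlaps CEP83 on the opposite strand, which had 934 counts in NOZ and 570 in NOZ-R, against 74 and 158 of PLXNC1. Reads in the shared stretch cannot be told apart without strand.

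Among the more abundant plexins, PLXNA1 and PLXNB2 rose and PLXNB1 fell. PLXNA1, a partner of neuropilins, rose from 75.5 CPM ± 2.54 to 146 CPM ± 4.40 (SD, n = 3 per line), a log2 change of 0.95 ± 0.0592 (SE, edgeR's adjusted p = 1.25e-08). PLXNB2, a receptor for class 4 semaphorins, rose from 101 CPM ± 7.16 to 185 CPM ± 1.08 (SD, n = 3 per line), by 0.87 ± 0.0620 (SE, edgeR's adjusted p = 4.96e-08). PLXNB1, the main receptor of SEMA4D, went from 57.8 CPM ± 3.15 to 41.5 CPM ± 1.77 (SD, n = 3 per line), a log2 change of -0.48 ± 0.0722 (SE, edgeR's adjusted p = 6.58e-05). PLXNA2 (100.2 CPM and 109 CPM), PLXNA3 (27.9 CPM and 28.5 CPM) and PLXNB3 (8.12 CPM and 7.52 CPM) did not pass. PLXNA2 passed without NOZ replicate 2 (log2 fold change 0.13, edgeR's adjusted p = 0.0453).

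The neuropilins differed from each other. NRP2 (chr2:205681990-205798133), the co-receptor of SEMA3F, SEMA3C and SEMA3G, measured 75.2, 76.7 and 70.2 CPM in NOZ, against 147, 149 and 145 CPM in NOZ-R, a log2 change of 0.99 ± 0.0598 (SE, edgeR's adjusted p = 9.32e-09). NRP1, the co-receptor of SEMA3A, was at 299.8 CPM ± 18.2 and 285 CPM ± 4.83 (SD, n = 3 per line) and did not pass (log2 fold change -0.07 ± 0.0560, SE, edgeR's adjusted p = 0.281). Scaled by library size alone NRP1 had a log2 value of -0.20 (edgeR's adjusted p = 0.00661), while NRP2 stayed higher in all 17 settings and lost its call only against a 2-fold change. NRP2 made up 17.01% ± 0.394 of the summed neuropilin FPKM in NOZ, against 29.9% ± 0.656 in NOZ-R (SD, n = 3 per line). By FPKM, NRP1 led PLXNB2 in NOZ at 27.2 ± 1.69 and 14.6 ± 1.03, and in NOZ-R PLXNB2 (24.3 ± 0.224) lay just above NRP1 (23.6 ± 0.378) without overlap (SD, n = 3 per line).

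The PLXND1 promoter is shown as that of the plexin with the largest change among those well counted in both lines. It held the most GC boxes of the promoters shown, 9 matches, some of them overlapping or adjoining, in the 250 bases before its RefSeq start (chr3:129606677-129606926, minus strand, GRCh38.p14), again in capitals, with G and C at 88.8%.
PLXND1: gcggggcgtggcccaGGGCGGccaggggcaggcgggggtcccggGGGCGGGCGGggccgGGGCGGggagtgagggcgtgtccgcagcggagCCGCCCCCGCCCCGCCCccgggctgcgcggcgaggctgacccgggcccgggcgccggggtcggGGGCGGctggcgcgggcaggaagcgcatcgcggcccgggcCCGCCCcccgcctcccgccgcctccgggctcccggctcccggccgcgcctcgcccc

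Slits were near absent in both lines, while the receptors ROBO1 and, at far lower level, ROBO2 were detected in every NOZ-R library and in at most 1 NOZ library. SLIT1, SLIT2 and SLIT3 had 4, 1 and 0 counts over all 6 libraries. ROBO1 (chr3:78597240-79767815), the main Slit receptor outside the nervous system, had 0, 2 and 0 counts in NOZ, against 89, 88 and 73 in NOZ-R, or 4.92, 5.45 and 4.89 CPM in NOZ-R. The ratio of the lines was 134.4 with a 95% interval for counting error from 36.8 up to 1116 (edgeR's adjusted p = 2.20e-08). Both NOZ counts came from replicate 2, and the fitted log2 fold change of 6.82 was 9.42 without that library. ROBO2, its neighbour on chromosome 3, had 0 counts in NOZ, against 5, 4 and 7 in NOZ-R. This is 5.74-fold above the floor of 3 counts over the NOZ libraries, with the NOZ-R counts taken as exact.

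ROBO4, a Robo best known from endothelium, was the most abundant Robo in both lines, at 5.42 ± 0.441 and 5.80 ± 0.396 FPKM (SD, n = 3 per line). In CPM it rose from 34.3 ± 2.81 to 40.2 ± 2.88 (SD, n = 3 per line), a log2 change of 0.23 (edgeR's adjusted p = 0.0325). This call was lost under scaling by library size alone (edgeR's adjusted p = 0.327) and without NOZ replicate 1 or 2 or NOZ-R replicate 2 or 3 (edgeR's adjusted p = 0.0781, 0.0620, 0.0659 and 0.135). Of 8 endothelial markers, only PECAM1 had enough counts to be tested (log2 fold change 2.29). Added up over all markers of this list, the NOZ libraries ranged from 2.64 to 3.40 CPM, while those of NOZ-R ranged from 9.29 to 10.2. Whether endothelial cells bear on the ROBO4 values was not tested. Among the endothelial markers not tested, CDH5 had 29 counts in NOZ and 20 in NOZ-R, TEK 19 and 3, and CLDN5 6 and 0. EMCN had 3 and 2, ERG had 0 and 2, VWF had 4 in each line and KDR had 1 in each. ROBO3, a divergent Robo next to ROBO4 on chromosome 11, was at 9.26 CPM ± 0.944 and 7.60 CPM ± 0.519 (SD, n = 3 per line). It did not pass (log2 fold change -0.28, edgeR's adjusted p = 0.0722), but did without NOZ replicate 1 (-0.36, edgeR's adjusted p = 0.0420).

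The ROBO1 promoter is printed because the gene went from near 0 to detection in every NOZ-R library and because it differs in makeup from those above. Its 250 bases before the RefSeq start (chr3:79767999-79768248, minus strand, GRCh38.p14) held 48.0% G and C and no match to any of the motifs searched, so nothing is in capitals.
ROBO1: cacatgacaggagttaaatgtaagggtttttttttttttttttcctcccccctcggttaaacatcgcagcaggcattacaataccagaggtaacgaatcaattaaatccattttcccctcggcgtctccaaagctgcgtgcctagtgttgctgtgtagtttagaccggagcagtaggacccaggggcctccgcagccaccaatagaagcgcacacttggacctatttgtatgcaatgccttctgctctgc
The GENCODE gene models used for positions start elsewhere than RefSeq's for some of these genes. The ROBO1 window ends 183 bases before its model, while 142 of the 250 bases of the PLXND1 window and 24 of those of EFNB1 lie inside theirs. The EPHB2 and EPHB4 windows end 1 and 2 bases before theirs.

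Among netrins, only NTN4 was expressed at a level that could be tested. NTN4, which binds laminins of the basement membrane, fell from 86.5 CPM ± 8.45 to 59.7 CPM ± 4.88 (SD, n = 3 per line), a log2 change of -0.54 ± 0.0827 (SE, edgeR's adjusted p = 7.61e-05). NTN1, the classical ligand of DCC and the UNC5 receptors, had 19 counts in NOZ and 11 in NOZ-R, and NTN5 had none. NTN3 had 1 and 9, which is 9.68 times as high with a 95% interval for counting error from 1.34 up to 424.2. UNC5B, a dependence receptor for NTN1, was at 0.625 CPM ± 0.110 and 0.806 CPM ± 0.231 (SD, n = 3 per line) and did not pass (log2 fold change 0.35). UNC5A and UNC5C had no count and UNC5D had 3. DCC had no count in either line, and neogenin NEO1, which shares NTN1 as a ligand, was at 3.97 CPM and 4.57 CPM and did not pass (edgeR's adjusted p = 0.346).

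In all, 7 motifs were searched in the same window of 37 tested members that have a RefSeq promoter in the reference. The GC box GGGCGG was in 31 of them, 83.8%, against 66.6% of the promoters of all genes tested and 42.6% of 35116 promoters in all. It was in 16 of the 19 higher members and in 7 of the 9 lower ones. The TATA box TATAAA, the E box CACGTG, the AP-1 site TGANTCA, the STAT site TTCNNNGAA and a core of the interferon response element were each in 1 member, and the TEAD site CATTCC was in 2. Their shares over the promoters of all genes tested were 5.6%, 8.69%, 4.29%, 5.76%, 2.44% and 9.6% in that order, and over all promoters 10.7%, 6.34%, 6.57%, 6.57%, 3.02% and 11.9%. Both strands were searched. A match describes the letters and is not a site or a cause, and no match says only that these letters are not in this window.

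Ligands and receptors were then set side by side. Of 108 ligand and receptor pairs listed from general knowledge, 42 had both genes tested, and both were called in 25 of these. Ligand and receptor were both higher in 10 pairs and both lower in 4, the ligand was lower and the receptor higher in 8, and the ligand was higher and the receptor lower in 3. Pairs share genes, so these counts are not independent and no test was made. Of the tested members alone, 20 were higher and 10 lower, 71.4% called against 60.2% of all genes tested. Many pairs with both genes called, and more of them higher than lower, follow from these shares without any pairing. Both genes were higher in the pairs EFNB1 with EPHB2 (log2 fold changes 1.54 and 2.33), SEMA3C with PLXND1 (1.02 and 2.33), SEMA6B with PLXNA4 (2.06 and 4.27) and SEMA7A with PLXNC1 (0.69 and 1.20). SEMA3F and NRP2 rose together as well (1.15 and 0.99).

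Both genes were lower in SEMA4D with PLXNB1 (-0.68 and -0.48) and in EPHA4 with each of EFNA1, EFNA4 and EFNA5. EPHA2 rose by 0.96 while those same 3 ligands were lower. EFNA5 was lower while EPHB2 rose (-0.90 and 2.33). SEMA4D (-0.68) and SEMA4G (-0.90) were lower while their listed receptor PLXNB2 rose by 0.87. SEMA3A fell (-0.80) while PLXNA1 (0.95) and PLXNA4 (4.27) rose, and its co-receptor NRP1 and the plexins PLXNA2 and PLXNA3 did not pass. EFNB1 rose while EPHB4 and EPHA4 fell, and SEMA4B rose while PLXNB1 fell. ROBO1 rose with no Slit above 4 counts in all. RNA levels say nothing of the protein at the cell surface.

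**Figure D4:**
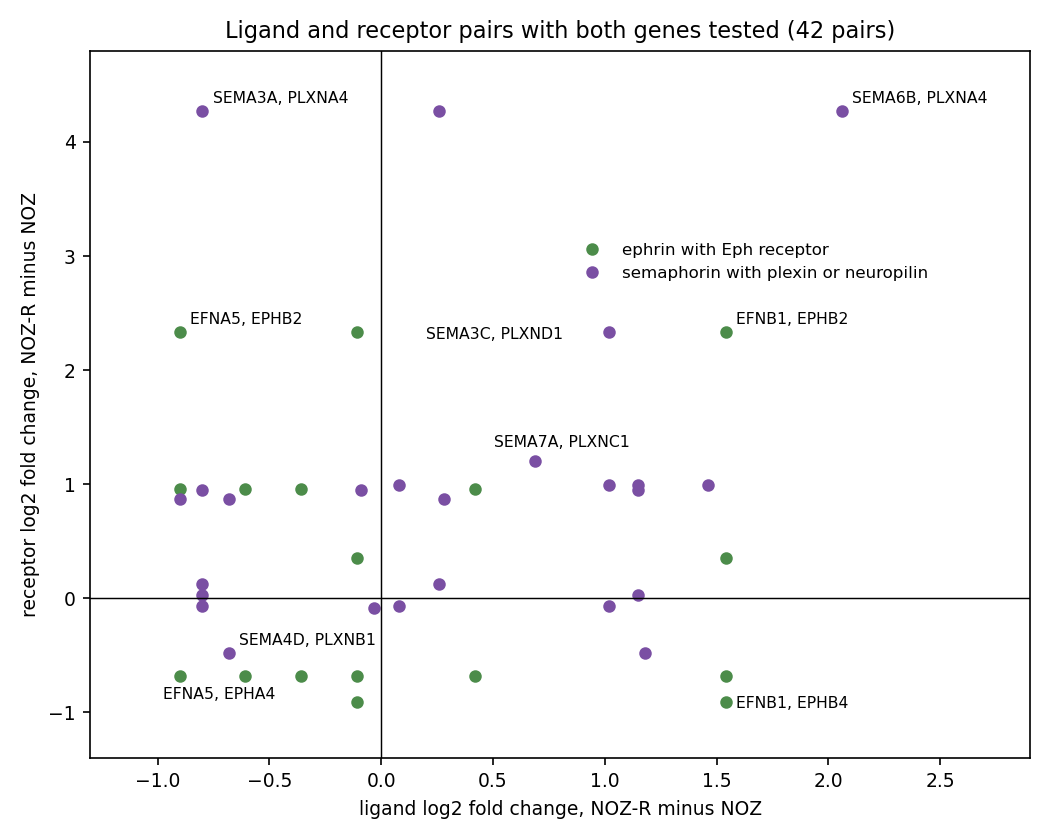
Log2 fold change (NOZ-R minus NOZ) of the ligand (x axis) and of its receptor (y axis) for the 42 pairs with both genes tested, one point per pair, with ephrin pairs in green and semaphorin pairs in purple. Points in the upper right have both genes above 0, with SEMA6B and PLXNA4 farthest out at 2.06 and 4.27, and points in the lower left have both below 0. A gene with several partners gives several points.

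The other genes of these pathways were taken from 5 lists chosen by known function, with 143 distinct genes that are not members. Of the 101 tested, 42 were higher and 31 lower, 72.3% called against 60.2% of all genes tested, with a median of 0.07. Each gene named from these lists passed edgeR's test. Genes that act inside the cell downstream of Eph receptors and ephrins comprised 13 higher and 12 lower of 31 tested (80.65% called). VAV3, an exchange factor that Eph receptors use, went from 0.0595 CPM ± 0.0559 to 55.6 CPM ± 3.18 (SD, n = 3 per line, edgeR's adjusted p = 4.77e-13), and PIK3R1, a regulatory subunit of PI3 kinase, rose by 1.66. The adaptor GRB10 and the kinase SRC were lower, by -0.85 and -0.83.

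Genes downstream of plexins comprised 13 higher and 9 lower of 30 tested, 73.3% called against 60.2% of all genes tested. RND3, a small GTPase that lowers contractility, rose by 1.18 and DPYSL3, a collapsin response mediator, by 1.16, while the kinases LIMK1 and PAK1, which act on actin, changed by -1.35 and -1.19. Downstream of Slit, Robo and netrin receptors 9 of 25 were higher and 8 lower. The kinase DAPK1, which works with UNC5 receptors in cell death, rose by 5.66 and PTK2B, a relative of focal adhesion kinase, by 1.17, and ABLIM1, an actin binding protein, changed by -1.66 and ARHGAP39 by -0.94.

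Of 12 tested co-receptors and partner ligands, 7 were higher and 2 lower, 75.0% called against 60.2% of all genes tested. The collagen-binding integrin subunit ITGA1 rose by 6.42 and VEGFA, also a ligand of neuropilins, by 1.62, from 97.3 CPM ± 3.01 to 298.7 CPM ± 10.1 (SD, n = 3 per line). MET, the receptor that B plexins associate with, changed by -0.67, and L1CAM, which joins NRP1 in SEMA3A receptors, by -0.25. Of 5 tested netrin and repulsive guidance partners, 40.0% were called, of which 1 was higher, and the lower one was LRIG3 at -0.70.

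Markers of other cell types that carry guidance genes were also measured. Of 10 neuronal markers 4 could be tested and 1, SYT1, was higher. The summed level was 67.8 to 81.4 CPM in NOZ and 74.6 to 86.4 CPM in NOZ-R, most of it MAP2, and DCX and STMN2 had no count in any library. Of 9 fibroblast and mural markers, 4 could be tested and 2 were higher, with a summed level of 4.54 to 4.76 CPM in NOZ and 9.34 to 10.5 CPM in NOZ-R. The higher markers were COL3A1, from 19 to 155 counts (log2 fold change 3.10, edgeR's adjusted p = 4.38e-05), and RGS5, from 66 to 122 (1.0, edgeR's adjusted p = 0.0036). The tested markers that did not pass went in different directions. COL1A1 went from 138 to 88 counts (log2 fold change -0.54, edgeR's adjusted p = 0.0548). PDGFRB went from 19 to 33 (0.88, edgeR's adjusted p = 0.147). Among the markers not tested, DCN had 0 and 37 counts, LUM 0 and 25, PDGFRA 5 and 29, COL1A2 0 and 4 and THY1 0 and 1. Of 8 leukocyte markers, 2 could be tested and 1 was higher, with summed levels of 3.21 to 5.84 CPM and 4.16 to 5.51 CPM. Of 8 glial markers, 3 could be tested, 1 higher and 1 lower, with summed levels of 66.2 to 70.5 CPM and 54.5 to 64.0 CPM, most of it MBP (log2 fold change -0.32). The higher marker was the water channel AQP4, with 0 counts in NOZ and 265 in NOZ-R (edgeR's adjusted p = 9.6e-08), and OLIG2 had no count. The part of such cells in the guidance gene values was not tested. In bulk RNA, a change in the share of cells and a change in RNA per cell cannot be told apart.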

How the data were processed

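Poly-A RNA of 3 NOZ and 3 NOZ-R libraries was sequenced. The library protocol in the labels names no strand-marking step and no molecular identifiers. The authors deposited raw counts and FPKM for 63140 genes. Per the submitters' processing notes, fastp 0.22.0 and build GRCh38 were used. No aligner, counter, strand setting or annotation release is given in the sources used here. The deposited FPKM equals count over library total and 1 fixed length per gene, with no composition correction.

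Counts were filtered with filterByExpr (minimum count 10), scaled with TMM and tested with edgeR 4.0.16 in R 4.3.3 (quasi-likelihood, Benjamini-Hochberg over 14386 genes). An SE is the log2 fold change over the square root of F. Positions came from GENCODE 29 (GRCh38) and promoters from RefSeq (GRCh38.p14), matched by symbol for 68 and 58 members. Full values were given for members past the test at 2-fold or more and for some others, and shorter values for the rest, including the most abundant ligand and receptor of each family by FPKM. Of other pathway genes, up to 2 increases and 2 decreases per list at 5 CPM or more were named. Members, lists and tests were chosen with earlier results of these data known. NEO1 and DCC were named outside that rule, after their values were seen, as were the marker genes. Alternatives were other scaling factors, other filters, DESeq2 1.42.0, limma 3.58.1 on log2(FPKM + 1) and log2(FPKM + 0.1), a threshold of 0.01, a test against 2-fold, the replicate number as a block and leaving out each library. The fit was tested on simulated data. Replicate pairs differed by more than sampling noise (chi-square per gene 2.19 to 11.2), and all 6 libraries were kept.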

Additional observations from a re-analysis of the deposited data

How the results depend on the processing

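Of the 30 called members, 8 (EFNB1, EPHB2, PLXNA4, PLXND1, ROBO1, SEMA4B, SEMA4F and SEMA6B) kept their call in all 17 settings run, 15 lost it only in the test against a 2-fold change, and 7 (EFNA1, EFNA4, EPHB6, ROBO4, SEMA3G, SEMA4C and SEMA4G) lost it in another setting as well. Among those kept in all settings, ROBO1 and PLXNA4 were tested only because of their level in NOZ-R. The settings reuse the same libraries and are not independent checks. No called member changed sign. DESeq2 called 20 members higher and 8 lower (29% and 27.3% of all genes). The test against a 2-fold change, a stricter question by construction, gave 8 higher and 0 lower members, and 11 higher and 3 lower other pathway genes. Leaving out 1 library at a time gave 17 to 20 higher and 7 to 9 lower members (27.0% to 31.4% and 25.7% to 29.3% of all genes). With the replicate number as a block 20 members were higher and 9 lower (30.1% and 29.1% of all genes), and SEMA4G was the 1 call lost. Same-numbered libraries deviated together no more than others (r = 0.0682, -0.0224 and -0.0365, against -0.0874 to 0.104 for libraries of different number). A weak link could be missed this way, and the labels do not say what a number marks. Uncalled members that changed sign were PLXNA2 (-0.0067, -0.0066 and -0.0075), PLXNA3 (-0.098, -0.071 and -0.097) and SEMA3B (-0.050, -0.036 and -0.051) with library size only, log2(FPKM + 1) and log2(FPKM + 0.1). Leaving out 1 library at a time gave -0.0075 to 0.075 for PLXNA3, -0.37 to 0.11 for PLXNB3, -0.17 to 0.17 for SEMA5A and -0.34 to 0.088 for SEMA6C. The cause of these changes was not tested. A larger pseudocount gives a smaller difference for rare genes. ROBO1 had a difference of 2.38 on log2(FPKM + 0.1) and 0.52 on log2(FPKM + 1), and PLXNA4 1.60 and 0.29. EFNB2, NRP1 and ROBO3 passed as lower when scaled by library size only or in FPKM. In limma on the 2 FPKM scales EPHB6 (adjusted p = 0.073 and 0.0764), ROBO4 (0.363 and 0.357) and SEMA3G (0.0845 and 0.0624) also lost their calls, and in DESeq2 EFNA1 (adjusted p = 0.0835) and SEMA4G (0.065) did. Of the 26 members below the count filter, 9 had no count in any library. The counts of other pathway genes under these settings were added after seeing the data.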

Other observations

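Neighbouring genes gave further values for some members. SEMA4D and SEMA4G, both lower in NOZ-R, lie where 27 of 32 and 74 of 96 tested genes within 5 Mb were lower, with medians of -0.61 and -0.59. PLXNA4, which rose by 4.27 on the log2 scale, lies in a stretch with a median of -0.61 over 56 genes, and EPHB6 and UNC5B lie in stretches at -0.56 each. EFNB1 is on the X chromosome, where 18 of 32 neighbours were lower (median -0.25). SEMA3A and SEMA3C are on the same arm of chromosome 7, starting at 83955777 and 80742538. The medians around them were -0.58 over 13 genes and -0.01 over 30 genes. After the median of its chromosome was subtracted, each of the 30 called members kept its sign and all 12 members at 2-fold or more stayed there, while SEMA4D came to -0.05. Whether position bears on any of these values was not tested.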
